A study of Mus with 8 samples.

Results

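The intestinal epithelial genes described here are 10 genes, Cdx1, Cdx2, Krt8, Krt18, Krt19, Krt20, Vil1, Tspan8, Lgals4 and Cdh17, chosen by name. They were followed in 8 subcutaneous tumours of MC38, a colon cancer cell line of the mouse. Of these genes 9 were among the 31281 genes and transcripts tested, and Cdh17 was too dim to test. The cells had been transplanted into 4 wild-type mice (WT host) and 4 mice carrying Ext1 flox/flox and S100a4-Cre (Ext1S100a4Cre host), all described as B6, and the tumours were removed 25 to 30 days later. The floxed Ext1 gene encodes a polymerase of heparan sulfate and is cut where the S100a4 promoter drives Cre, which covers fibroblasts and some immune cells of the host. Both groups received the same line, MC38, and Cre acts in the host's cells only. The age of the hosts is not given in the sources used here, and the labels describe no hosts with Cre or with floxed Ext1 alone. RNA came from whole tumours and was read on 1-colour Agilent arrays, 1 tumour each.

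In a bulk tumour, fewer cells of a type and less RNA per cell cannot be told apart. A level below is the log2 intensity of a probe minus the array's 75th percentile, so a negative level lies under that percentile. Levels of different probes are not set against each other. A probe counted as measured on an array where the scanner software marked it as well above background.

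Cdx1 and Cdx2 are homeobox transcription factors that set up intestinal identity in the embryo and maintain it in the adult gut. Among their known targets are genes of the finished enterocyte, including Cdh17, a cadherin of the intestinal epithelium, and Vil1, the actin bundler of the brush border. Krt8 pairs with Krt18, Krt19 or Krt20 to form the keratin filaments of simple epithelia, and Krt20 marks the differentiated upper part of colon crypts. Tspan8 is a tetraspanin of epithelial membranes that is often raised in digestive cancers. Lgals4 encodes galectin-4, a sugar-binding protein of the gut lining.

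The tumours differed from each other in ways that the host label does not cover. Arrays had a 75th percentile of intensity between 846.9 and 1265, with the lowest in tumours 1 and 4 of the Ext1S100a4Cre host. The Y-linked genes Ddx3y, Eif2s3y, Kdm5d and Uty were well above background on 6 arrays, the exceptions being Ext1S100a4Cre host tumours 1 and 4. WT host tumour 3 led the fibroblast and macrophage markers (list means 2.37 and 2.28), Ext1S100a4Cre host tumour 1 had the least of both (-3.39 and -2.81), and skeletal muscle markers stood out in Ext1S100a4Cre host tumours 2 and 3 (2.55 and 3.53). A list mean is the mean over its tested genes of each gene's deviation from its mean over the 8 tumours, in log2 units. These tumours are named below wherever a value rests on them. The labels do not say whether the 8 mice shared litters or cages, and the p-values below treat the tumours as independent.

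Genes of epithelia and of the intestine were first counted by whether they were measured. Among all 22911 named genes with a probe 67.7% were measured on all 8 arrays and 19.0% on none, and no list was tested against that share. Of 31 genes of epithelial junctions and epithelial control 29 were measured on all 8 arrays and 0 on none. They include Cdh1 (E-cadherin), at levels of 2.90 to 3.52, Epcam, at 0.44 to 1.37, and Grhl2, a transcription factor of epithelial cells, at 1.28 to 2.21. Of 22 intestinal transcription factors 17 were measured on all 8 arrays, among them Foxa2 and Klf4, while Isx and Atoh1 were on none. Hnf4a, a central regulator of enterocytes, was measured on 2 arrays. Of 23 genes of mature absorptive cells 11 were measured on all 8 arrays and 5 on none, namely Slc26a3, Fabp1, Alpi, Lgals2 and Slc5a1. Of 16 goblet and enteroendocrine genes 7 were measured on all 8 arrays and 5 (Tff3, Spink4, Retnlb, Neurod1 and Gcg) on none. Of 16 brush border genes 11 were measured on all 8 arrays, and Anks4b on none. Of the members, the 4 keratins, Cdx2, Vil1, Tspan8 and Lgals4 were measured on all 8 arrays and Cdh17 on none. The labels call the sample a colon cancer cell, but the RNA is that of whole tumours and does not show which cells held these transcripts.

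No member passed the test between hosts. Limma called 0 of the 9 members and 0 of all genes tested (0% called) at an adjusted p of 0.05. At unadjusted p under 0.05 there were 2 members, Cdx1 and Tspan8, against 2050 genes, or 6.55% of those tested (4.39% higher and 2.16% lower in the Ext1S100a4Cre host). The hosts did not overlap for the same 2 members, with Cdx1 higher and Tspan8 lower in the Ext1S100a4Cre host. Over all genes 4.52% had hosts without overlap, 3.38% higher and 1.14% lower. In the Ext1S100a4Cre host the mean was higher for 6 of the 9 members and lower for 3, and with the unscaled series matrix higher for 2 and lower for 7. As reported, their median difference was 0.15, beside 0.05 over all genes tested. Since the members were proposed with results of these data known, the counts are a description.

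**Figure D1:**
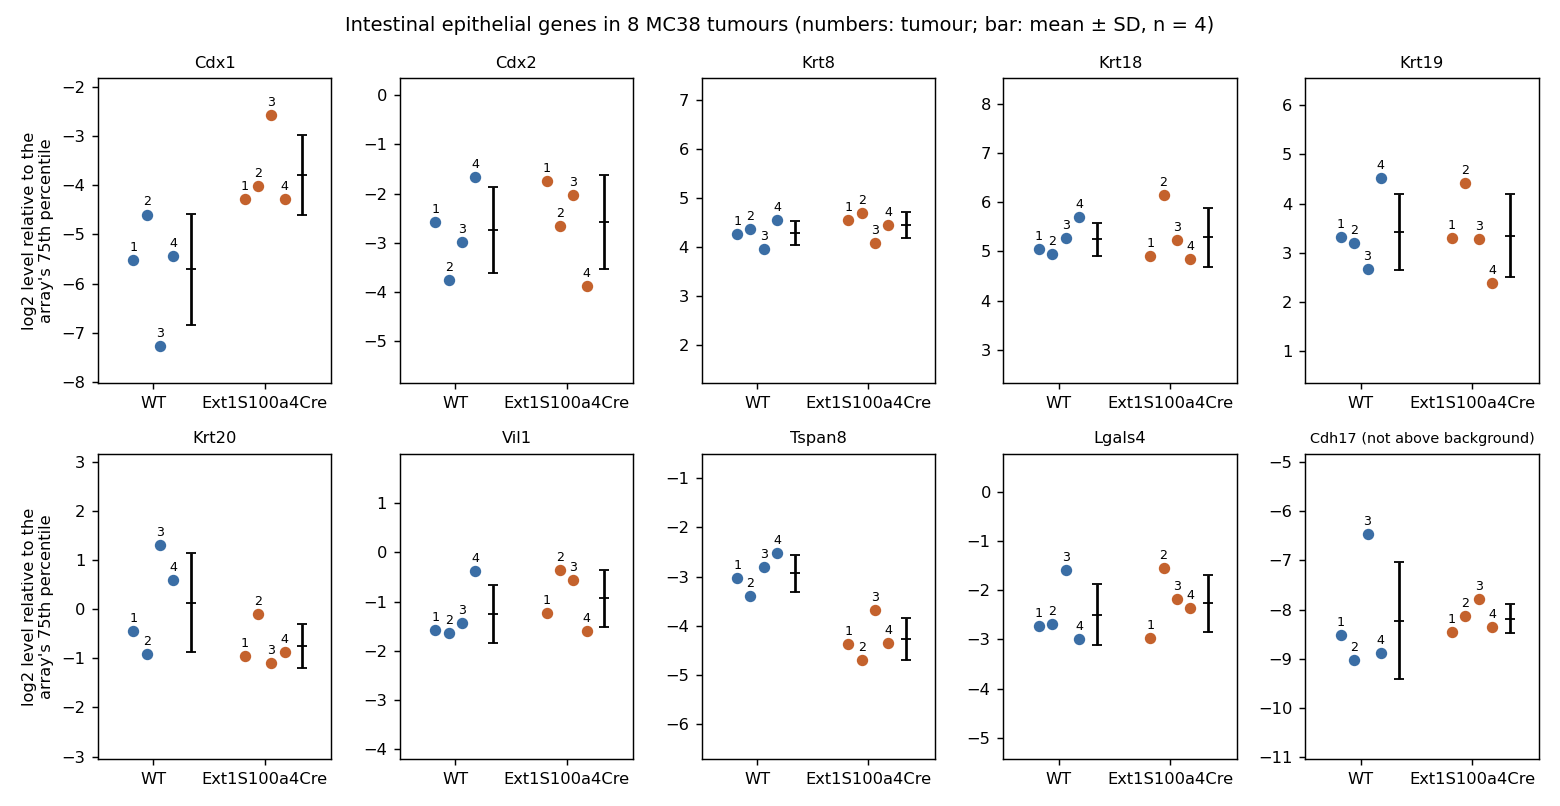
Log2 level after subtracting the 75th percentile of each array (vertical axis, the same span of log2 units in each panel) for the 10 genes in each tumour, by host; points are tumours with their number, and bars give the mean ± SD of 4. The hosts do not overlap for Cdx1 and Tspan8, overlap for the other 7 tested genes, and no array had Cdh17 well above background.

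Cdx1 was near the detection limit in the WT host and brighter in the Ext1S100a4Cre host. Its levels were -5.51, -4.59, -7.28 and -5.44 in WT host tumours 1 to 4. They were -4.28, -4.02, -2.57 and -4.28 in Ext1S100a4Cre host tumours 1 to 4. Every tumour of the Ext1S100a4Cre host thus lay above every WT host tumour, but the gap between the nearest tumours was 0.31 log2 units, and tumour 3 stood apart at the top. In unscaled intensity the hosts overlapped, since Ext1S100a4Cre host tumours 1 and 4, the arrays with the lowest 75th percentile, read below WT host tumour 2. The probe was measured in 3 of 4 WT host tumours and not in tumour 3, whose value is a background reading. As intensities, the WT host tumours read 25.2, 52.4, 6.6 and 25.9 and the Ext1S100a4Cre host tumours 44.03, 62.8, 191 and 43.6.

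Cdx1 averaged -5.70 ± 1.13 (SD, n = 4) in WT hosts, against -3.79 ± 0.82 (SD, n = 4) in Ext1S100a4Cre hosts. The difference of 1.92 (SE 0.61, 95% interval 0.52 to 3.32) missed the threshold with an adjusted p of 0.747 in limma. The exact two-sided permutation p over the 70 assignments of tumours was 0.0286, the smallest they can give, and the lack of overlap fixes it. Without WT host tumour 3 the difference was 1.39, and with normexp background correction and an offset of 50 it was 0.91. With array weights it was 1.26. Within slide row 1 it was 0.90 and within slide row 2, which holds WT host tumour 3 and Ext1S100a4Cre host tumour 3, it was 2.93.

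Cdx2, the other CDX factor, was measured on all 8 arrays and its hosts overlapped over nearly their whole range. WT host tumours 1 to 4 had levels of -2.59, -3.76, -2.98 and -1.66, and Ext1S100a4Cre host tumours 1 to 4 had -1.75, -2.67, -2.02 and -3.89. WT host tumour 4 was the brightest and Ext1S100a4Cre host tumour 4 the dimmest. The difference of 0.17 (SE 0.57, limma adjusted p = 0.944) had an interval from -1.14 to 1.47, so a 2.77-fold higher level or one at 0.455 of the WT level lay inside it. The 2 slide rows gave 0.97 and -0.64. Cdx1 and Cdx2 did not follow each other: Ext1S100a4Cre host tumour 4 was lowest of all for Cdx2 and 0.47 above the mean of the 8 tumours for Cdx1.

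Other intestinal transcription factors gave no member past the test. Of 19 tested, 9 had a higher and 10 a lower mean, with a median difference of -0.09. Creb3l3, a regulator of lipid metabolism in liver and gut, was the factor with the smallest unadjusted p and lay lower without overlap, at -3.11 in the WT host and -5.11 in the Ext1S100a4Cre host on average (difference -2.005, SE 0.74, adjusted p = 0.747 in limma). It was measured in 3 of 4 Ext1S100a4Cre host tumours and not in tumour 1, whose value is a background reading. Its lowest and highest values, -6.70 (Ext1S100a4Cre host tumour 1) and -1.22 (WT host tumour 3), were in the tumours that also bound the fibroblast and macrophage lists. The part of those cells in its value was not tested. Maf differed by -1.35. Its lowest (-3.20) and highest (1.04) levels were in the same tumours as those of Creb3l3, and the part of those cells was again not tested. Ascl2 differed by -0.33.

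The keratin pair Krt8 and Krt18 was bright in every tumour. The genes lie close together on chromosome 15, with 2 annotated genes and 0 protein-coding genes between them. Krt8 stood at 4.27, 4.37, 3.96 and 4.55 in WT host tumours 1 to 4 and at 4.56, 4.69, 4.08 and 4.44 in the Ext1S100a4Cre host. It was the steadiest member, with an SD of 0.25 over the 8 tumours, and in each host tumour 3 was the lowest. Its difference of 0.15 (SE 0.18, limma adjusted p = 0.83) had an interval from -0.27 to 0.58, which bounds a rise at 1.49-fold and a loss at 0.827 of the WT level. The slide rows gave 0.30 and 0.00.

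Krt18 stood at 5.05, 4.95, 5.28 and 5.71 in WT host tumours 1 to 4 and at 4.91, 6.16, 5.24 and 4.84 in the Ext1S100a4Cre host. The brightest were Ext1S100a4Cre host tumour 2 and WT host tumour 4, and the other 6 lay between 4.84 and 5.28. The difference between hosts was 0.04 (SE 0.31, interval -0.68 to 0.77, limma adjusted p = 0.976), or -0.25 without Ext1S100a4Cre host tumour 2. In slide row 1 it was 0.53 and in slide row 2 it was -0.45.

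Krt19 varied more than the other bright keratins. Its levels were 3.31, 3.19, 2.67 and 4.51 in WT host tumours 1 to 4, and 3.30, 4.43, 3.28 and 2.37 in Ext1S100a4Cre host tumours 1 to 4. WT host tumour 4 and Ext1S100a4Cre host tumour 2 were again the brightest, and across all tumours the level spanned 4.41-fold. The hosts differed by -0.07 (SE 0.50, interval -1.23 to 1.08, limma adjusted p = 0.9752). Without WT host tumour 4 the value was 0.29 and without Ext1S100a4Cre host tumour 4 it was 0.25. The slide rows gave 0.61 and -0.76.

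Krt20, the keratin of differentiated colon cells, was brightest in 2 WT host tumours. Its levels were -0.45, -0.92, 1.31 and 0.59 in WT host tumours 1 to 4, and -0.95, -0.10, -1.10 and -0.86 in Ext1S100a4Cre host tumours 1 to 4. WT host tumours 3 and 4 lay above all tumours of the other host, while WT host tumours 1 and 2 lay among them. The difference of -0.89 (SE 0.48, interval -1.998 to 0.23) gave p = 0.747 in limma after adjustment and p = 0.2 in the exact permutation test. In slide row 1 it was 0.16 and in slide row 2, with both bright WT tumours, -1.93. Without WT host tumour 3 it was -0.49 and without WT host tumour 2 it was -1.24. Array weights gave -0.39 and the unscaled series matrix -1.135.

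The other keratins and keratin-binding proteins of simple epithelia were tested in 8 genes. Means were higher for 3 and lower for 5 of them, 0 had an unadjusted p under 0.05, and the median difference was -0.14. Krt7 stood highest in WT host tumour 4 (3.08) and Ext1S100a4Cre host tumour 2 (2.90) and was dimmest in Ext1S100a4Cre host tumour 4 (0.43), the same extremes as Krt19. Envoplakin (Evpl), which links keratins to junctions, had the smallest unadjusted p and differed by 0.39 (SE 0.21, limma adjusted p = 0.747).

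Vil1, villin, was measured in every tumour. WT host tumours 1 to 4 stood at -1.58, -1.63, -1.44 and -0.38 and Ext1S100a4Cre host tumours 1 to 4 at -1.23, -0.35, -0.56 and -1.61. Ext1S100a4Cre host tumours 2 and 3 and WT host tumour 4 formed the upper end, and the other 5 lay between -1.63 and -1.23. The hosts differed by 0.32 (SE 0.37, interval -0.53 to 1.18, limma adjusted p = 0.821), with 0.82 in slide row 1 and -0.18 in slide row 2. Without Ext1S100a4Cre host tumour 2 the value was 0.13 and without WT host tumour 4 it was 0.62. Among 12 other brush border genes tested, the mean was higher for 9 and lower for 3, 0 had an unadjusted p under 0.05, and the median difference was 0.17. Pls1, a plastin of microvilli, came first by unadjusted p and differed by -0.97 (SE 0.48), and Slc9a3r1, Plekhg6 and Misp followed with 0.31, 0.39 and 0.18.

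Tspan8 was dimmer in every Ext1S100a4Cre host tumour than in any WT host tumour. WT host tumours 1 to 4 had levels of -3.03, -3.39, -2.80 and -2.52, and Ext1S100a4Cre host tumours 1 to 4 had -4.37, -4.70, -3.69 and -4.36. The nearest tumours of the 2 hosts were 0.29 log2 units apart, and the probe was measured on all 8 arrays. As intensities these were 140.3, 120.4, 147.4 and 195.8 in the WT host and 41.3, 39.1, 88.4 and 41.4 in the Ext1S100a4Cre host. The mean was -2.94 ± 0.37 (SD, n = 4) against -4.28 ± 0.43 (SD, n = 4).

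The difference of Tspan8 was -1.34 (SE 0.26, 95% interval -1.94 to -0.74), which is 2.53-fold, and it missed the threshold with an adjusted p of 0.573 in limma. Its exact permutation p of 0.0286 is fixed by the lack of overlap. It was much the same in slide row 1 (-1.32) and slide row 2 (-1.36), and ran from -1.54 to -1.20 with 1 tumour left out. Leaving out Ext1S100a4Cre host tumours 1 and 4 gave -1.26, and leaving out WT host tumour 3 with Ext1S100a4Cre host tumour 1 gave -1.27. With normexp it was -0.70, still in the same direction. Fibroblast and macrophage markers also had lower means in the Ext1S100a4Cre host (14 of 14 and 12 of 13 tested). Their list means ran from -0.02 to 2.37 and from 0.05 to 2.28 in the WT host, and from -3.39 to 1.18 and from -2.81 to 0.73 in the Ext1S100a4Cre host. Ext1S100a4Cre host tumour 2, the lowest for Tspan8, had list means of 1.18 for fibroblasts and 0.13 for macrophages. WT host tumour 4, the highest for Tspan8, had 0.20 and 0.14. The part of fibroblasts and macrophages in the Tspan8 values was not tested.

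**Figure D2:**
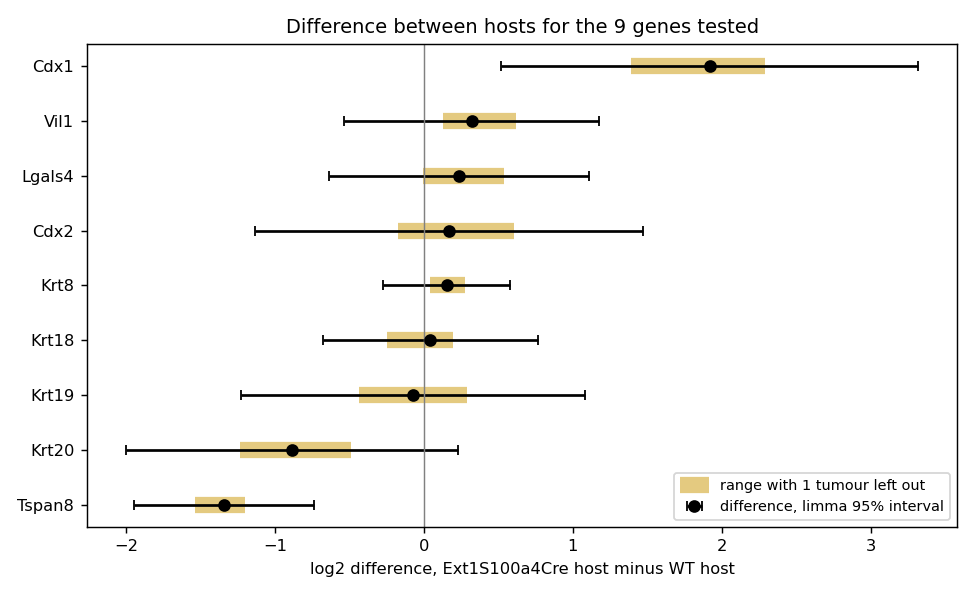
Log2 difference between hosts, Ext1S100a4Cre host minus WT host (horizontal axis), for the 9 genes tested; points with bars are limma's estimates with 95% intervals, and the broad bands show the range when any 1 tumour is left out. The intervals of Cdx1 (0.52 to 3.32) and Tspan8 (-1.94 to -0.74) lie on 1 side of 0, those of the other 7 genes span it, and 0 genes passed the adjusted threshold.

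Lgals4 was read by 2 probes of the same transcript, both measured on all 8 arrays. The brighter probe gave -2.72, -2.68, -1.59 and -3.00 in WT host tumours 1 to 4 and -2.97, -1.54, -2.18 and -2.36 in the Ext1S100a4Cre host. The dimmer probe gave -4.89, -4.85, -3.73 and -4.80 and then -5.31, -3.58, -4.55 and -4.59. On both probes Ext1S100a4Cre host tumour 2 and WT host tumour 3 were the brightest. The brighter probe differed by 0.23 (SE 0.38, interval -0.64 to 1.11, limma adjusted p = 0.875) and the dimmer by 0.06. For the brighter probe slide row 1 gave 0.45 and slide row 2 gave 0.02. Leaving out Ext1S100a4Cre host tumour 2 turned it to -0.0066.

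Cdh17 was at background level on all 8 arrays. Its readings were -8.53, -9.03, -6.46 and -8.89 in WT host tumours 1 to 4 and -8.46, -8.14, -7.79 and -8.35 in the Ext1S100a4Cre host, or intensities of 2.4 to 11.7. The largest was that of WT host tumour 3. The hosts are not compared for it, and the single probe says only that its signal was not above background.

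Genes of absorptive, secretory and stem cells of the gut, which are not members, were set beside them. Among 16 absorptive genes tested the mean was higher for 7 and lower for 9, with a median difference of -0.12 and 0 at an unadjusted p under 0.05. Dpp4 and Muc13, with the smallest p, differed by 0.66 and 0.24, and Fabp2 and Car4, next by p, each by -0.55. Of 10 secretory genes 4 had a higher and 6 a lower mean. Chga, chromogranin A of endocrine granules, was the 1 secretory gene at an unadjusted p under 0.05 (difference -2.87, SE 0.55). Muc2, the mucin of goblet cells, differed by 1.46 (SE 0.97) and was lowest in WT host tumour 3 (-4.74). For 11 stem cell genes the mean was higher in 6 cases and lower in 5, and 2 genes had an unadjusted p under 0.05, both higher without overlap. They are Ephb2, a receptor of the crypt base (0.43 ± 0.58 against 1.95 ± 1.01, SD, n = 4 each; difference 1.52, SE 0.51), and Tnfrsf19 (difference 0.80, SE 0.27), each with an adjusted p of 0.747 in limma. Ephb2 stood at 3.45 in Ext1S100a4Cre host tumour 4, against 1.35 to 1.59 in the others of that host. Tnfrsf19 stood at 1.36 in WT host tumour 3, against 2.35 to 2.54 in the others of that host. Lgr5, the stem cell receptor, stood at -1.35 and -1.61 on average in the WT and Ext1S100a4Cre hosts.

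Across the tumours, Krt18, Krt19 and Vil1 shared their brightest tumours but not their whole order. All were brightest in WT host tumour 4 and Ext1S100a4Cre host tumour 2, where they lay 0.44 to 1.13 above the mean of the 8 tumours. In Ext1S100a4Cre host tumour 4 they lay at -0.42, -1.01 and -0.51. In Ext1S100a4Cre host tumour 3 they parted, at -0.02, -0.10 and 0.54. The 30 tested epithelial junction genes, none of them a member, had list means of 0.40 and 0.38 in the first 2 of these tumours and -0.33 in the last, and between -0.20 and -0.05 in the other 5. Of these 30 genes 18 had a higher and 12 a lower mean in the Ext1S100a4Cre host, 0 had an unadjusted p under 0.05, and the median difference was 0.04. Ext1S100a4Cre host tumour 2 also had the highest skin keratinocyte list mean, 0.30, while WT host tumour 4 had 0.03. Its part in the members' values was not tested.

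**Figure D3:**
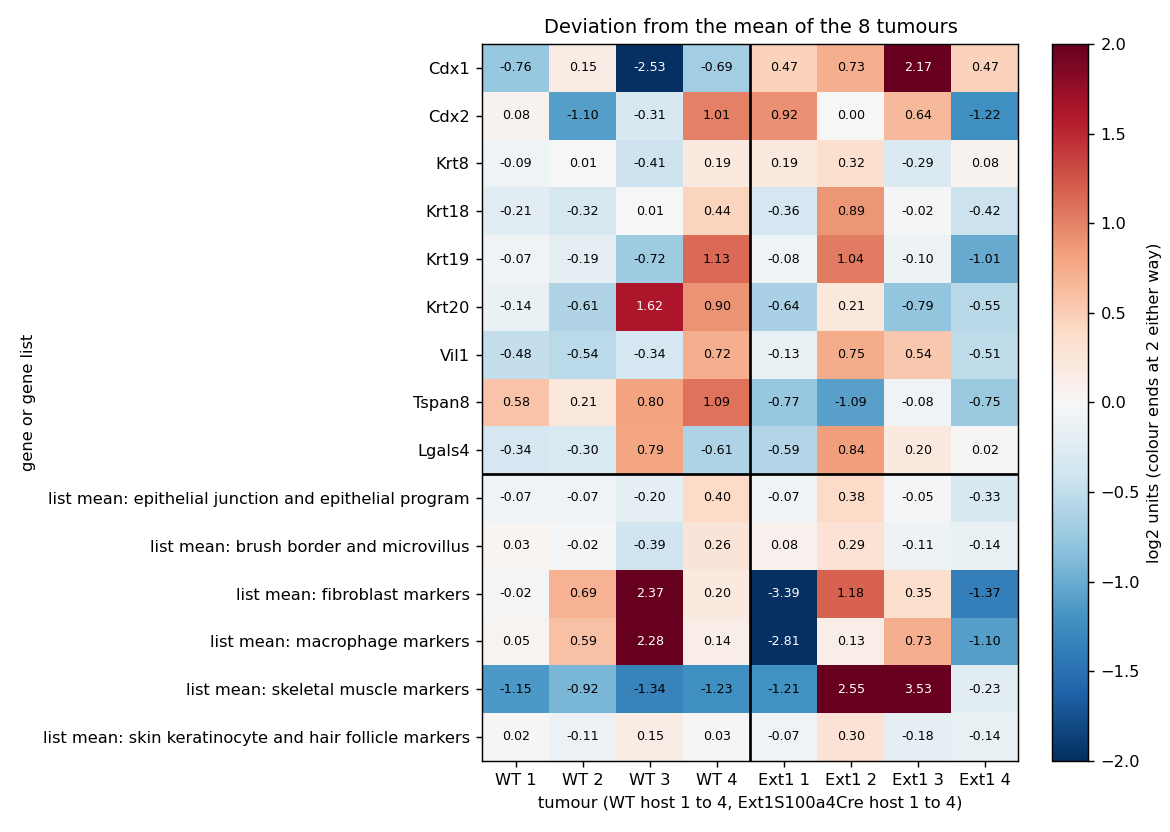
Deviation of each tumour from the mean of the 8 tumours, in log2 units (colour and printed value), for the 9 tested genes (upper rows) and for the mean of 6 marker lists (lower rows), with tumours of the WT host left of the line and those of the Ext1S100a4Cre host right of it. Krt18, Krt19 and Vil1 share their highest tumours with the epithelial list, at 0.40 and 0.38, while the fibroblast and macrophage lists peak in WT host tumour 3.

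The pairs of members were compared over the 8 tumours with Pearson's r and Spearman's rho, 36 pairs in all, with exact two-sided permutation tests adjusted by Benjamini-Hochberg. At an adjusted p of 0.05 there were 0 pairs, and 4 had an unadjusted p under 0.05 for r. Krt18 and Vil1 gave r = 0.83 (permutation p = 0.00637, adjusted 0.0958) and rho = 0.76 (permutation p = 0.0368, adjusted 0.441). Krt19 and Vil1 gave r = 0.82 (permutation p = 0.00751, adjusted 0.0958) and rho = 0.71 (permutation p = 0.0576, adjusted 0.518). Krt18 and Krt19 gave r = 0.82 (permutation p = 0.018, adjusted 0.162) and rho = 0.62 (permutation p = 0.115, adjusted 0.591). Without WT host tumour 4 and Ext1S100a4Cre host tumour 2 these 3 values of r were 0.53, 0.40 and 0.13. Those tumours were left out for lying farthest from the median, which by itself tends to lower r, so the fall is a description. Cdx1 and Krt20 ran opposite, with r = -0.82 (permutation p = 0.00799, adjusted 0.0958) and rho = -0.64 (permutation p = 0.0962, adjusted 0.577), and r = -0.50 without tumour 3 of either host. The keratin partners Krt8 and Krt18 gave r = 0.37 and rho = 0.07 (permutation p = 0.378 and 0.882, adjusted 0.851 and 0.962), with r = 0.72 without tumour 3 of either host. Each slide row held 4 tumours, too few for a correlation of its own.

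Each array was also scaled to its 30 epithelial junction genes instead of the 75th percentile. Since Krt18, Krt19 and Vil1 were picked for following this list in its extreme tumours, a narrower spread follows from the choice and is a description. The pooled SD within hosts went from 0.49 to 0.28 for Krt18, from 0.81 to 0.54 for Krt19 and from 0.59 to 0.36 for Vil1. It also went down for Krt8 (0.26 to 0.23), Cdx2 (0.91 to 0.79), Krt20 (0.78 to 0.74) and Cdx1 (0.99 to 0.96), and up for Tspan8 (0.40 to 0.48) and Lgals4 (0.60 to 0.66). On this scale, which was added after the data were seen, the hosts differed by -1.31 (SE 0.33) for Tspan8 and by 1.95 (SE 0.56) for Cdx1, with a limma adjusted p that rounds to 1.00 for each. Relative to their epithelial junction genes the Tspan8 levels were -2.97, -3.32, -2.61 and -2.91 in WT host tumours 1 to 4 and -4.30, -5.08, -3.64 and -4.03 in the Ext1S100a4Cre host, again without overlap.

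For each member measured on all 8 arrays with an SD of at least 0.5, the 3 genes with the highest Pearson r among 15736 other named genes were listed as a description, since a highest value among so many carries no test. Vil1 ran closest to Mlph (r = 1.00 when rounded), Pdzk1ip1 (0.97) and its own relative Vill, villin-like (0.97). Vill reached 3.23 in Ext1S100a4Cre host tumour 2 and 2.98 in WT host tumour 4, and stood at 1.97 to 2.79 elsewhere. Krt19 ran closest to Krt42, another keratin of chromosome 11 (r = 1.00 when rounded), followed by Dip2c (0.99) and Trim7 (0.98). The log2 difference between the Krt19 and Krt42 probes varied by 0.12 over the 8 arrays. Whether the Krt42 probe also reads Krt19 transcripts was not tested. Among the genes listed for Krt20 were Abi1 (0.97) and Pls1 (0.95), the plastin of microvilli described with Vil1. Cdx2 ran closest to Proser2 (0.99), Hoxb4 (0.93), a homeobox gene, and St8sia1 (0.90). Tspan8 ran closest to Tbx15 (0.99), Agps (0.95) and Zdhhc23 (0.94), and Lgals4 to Ttc28 (0.98), Lrrc55 (0.97) and Galnt9 (0.97).

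Markers of other cells that express simple keratins or lie near the graft were checked beside the members. Of 15 skin and hair follicle markers 11 were measured on all 8 arrays, and Krt1 and Dsg3 were on none. Among those measured was Trp63, at levels of 2.42 to 3.00. The tests covered 11 skin markers (6 with a higher, 5 with a lower mean). Their list mean ran from -0.11 to 0.15 in the WT host and from -0.18 to 0.30 in the Ext1S100a4Cre host. Krt10 differed by 0.53, Krt17 by -0.82 and Krt14 by -0.56, each at an unadjusted p under 0.05 and with a limma adjusted p of 0.747. Of 12 mammary markers 6 were measured on all 8 arrays, and the milk caseins Csn1s1, Csn2 and Csn3 were on none. The tests covered 8 (2 higher, 6 lower), including Krt5 and Krt14 from the skin list. Their list means ran from -0.04 to 1.03 in the WT host and from -0.56 to 0.18 in the Ext1S100a4Cre host. The 1.03 was in WT host tumour 3, where Ltf stood at -0.85, against -6.78 to -5.91 in the other WT host tumours. Prlr was lower without overlap (-0.33, limma adjusted p = 0.747). Of 6 mesothelial markers 1, Msln, was bright enough to test, and Upk3b and Lrrn4 were on no array. Proliferation markers, 12 tested, ran from -0.39 to 0.18 in the WT host and from -0.60 to 0.45 in the Ext1S100a4Cre host. Markers of muscle, fat and red cells had higher means in the Ext1S100a4Cre host in 12 of 12, 7 of 8 and 6 of 6 tested genes. In list means the hosts overlapped for all of these. Muscle ran from -1.34 to -0.92 in the WT host and from -1.21 to 3.53 in the Ext1S100a4Cre host. Red cells ran from -1.72 to -0.19 in the WT host and from -0.48 to 2.98 in the Ext1S100a4Cre host. For fat the list means were -1.70, -1.44, 2.49 and -0.76 for WT host tumours 1 to 4. Ext1S100a4Cre host tumours 1 to 4 had -2.02, 1.79, 3.60 and -1.95. The lowest fat list means were thus in the same host as the highest. Endothelial markers and those of T and NK cells had lower means in 10 of 10 and 11 of 12, and their list means also overlapped between hosts. Among 13 mesenchymal program genes 8 had a lower and 5 a higher mean, and Cdh2, N-cadherin, was higher without overlap by 1.28 (SE 0.24, limma adjusted p = 0.573). The part of these cells in the members' values was not tested.

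**Figure D4:**
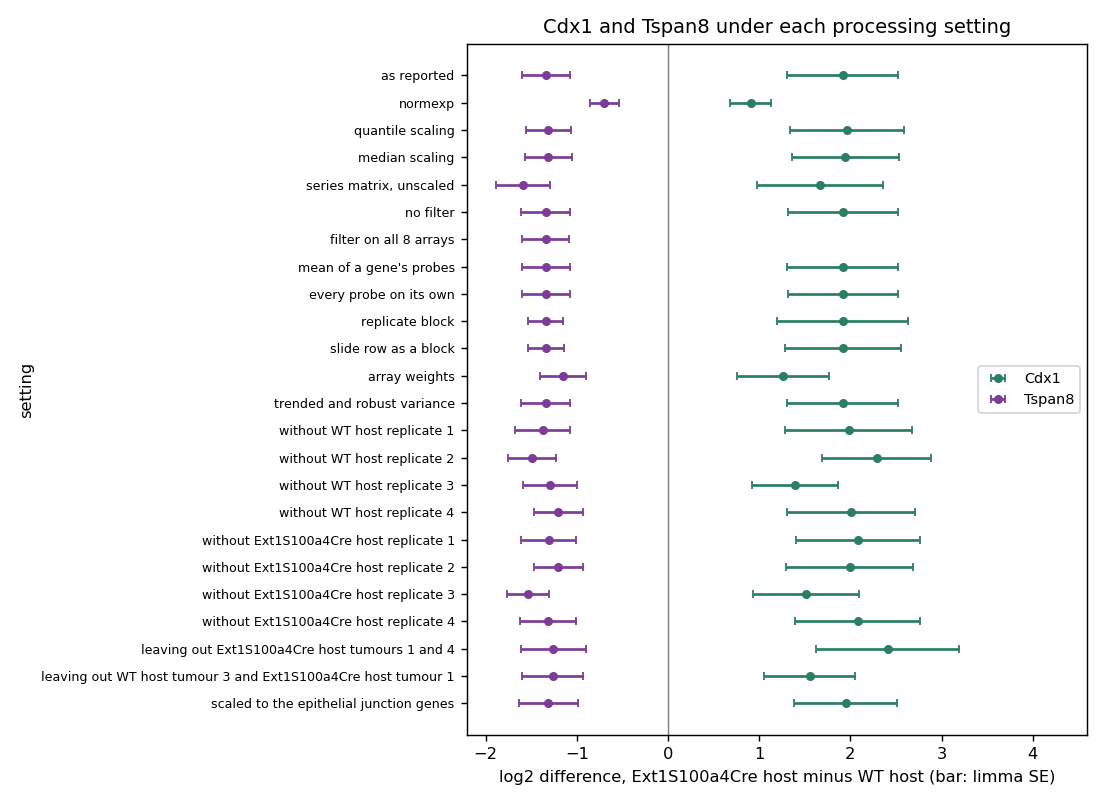
Log2 difference between hosts (horizontal axis, bars are limma's SE) of Cdx1 and Tspan8 as reported and under each other processing setting (vertical axis). Cdx1 stays between 0.91 and 2.41 and Tspan8 between -1.59 and -0.70, and Cdx1 has no value with the filter on all 8 arrays.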

How the data were processed

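Agilent Feature Extraction 10.7.3.1 wrote the deposited scanner output on a grid of build mm9, per the file headers. Version 9.1 is named in the submitters' processing notes. The authors' processed intensity of a spot is background-subtracted and detrended within its array. The deposited series matrix holds the same intensity values without scaling: 100% per array equalled the scanner values within 0.01%. Its median per array ran from 47.1 to 80.0. The flags used are per the file headers.

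From each log2 intensity the array's 75th percentile over all spots other than controls was subtracted. Spots with an outlier flag were left out (53 to 132 per array). Spots of a probe were averaged, and 0 were saturated. Probes well above background on at least 4 arrays were kept, and the one with the highest mean stood for its gene. Probes were named through RefSeq accessions without versions (GRCm38.p6 table, 32994 of 56605 probes named). The table gave names, chromosomes and gene order only. The comparison of hosts used limma 3.58.1 under R 4.3.3, two-sided and without covariates. P-values were adjusted by Benjamini-Hochberg over every gene tested, and the fit was tested on simulated data. The number of arrays and brightness over background limit precision. All 8 arrays lay on 1 slide, in 2 rows taken from the array position, each with 2 tumours per host. Members and gene lists were chosen with earlier results of these data known. All members are named, within a list up to 4 genes lowest in unadjusted p plus some chosen for their level after values were seen, and for likeness the 3 genes with the highest r. Replicate numbers were not used to pair the tumours. Some genes that these rules select are not reported here.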

Additional observations from a re-analysis of the deposited data

Results flagged for a closer look

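In 22 groups of 4 tumours (11 member probes in 2 hosts), 3 had a tumour whose gap to the nearest of the others took up more of the group's range than the critical value of Dixon's test, where chance gives about 1 in 20 such groups. Cdx1 stood at -2.57 in Ext1S100a4Cre host tumour 3, far above the other 3 of that host. Vil1 stood at -0.38 in WT host tumour 4. The dimmer Lgals4 probe stood at -3.73 in WT host tumour 3, the tumour with the highest fibroblast and macrophage list means.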

How the results depend on the processing

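Over 23 alternatives, 3 of them chosen after seeing the data, 0 members passed the adjusted threshold in any. Cdx1 kept its direction in all 22 that gave it a value, and Tspan8, Krt20 and Vil1 in all 23. The count of all genes called was 1 with normexp, 1 with array weights, 0 to 2 with 1 tumour left out (2 without WT host tumour 3), 11 without Ext1S100a4Cre host tumours 1 and 4, and 3 without WT host tumour 3 and Ext1S100a4Cre host tumour 1, against 0 as reported. With the replicate number as a block 3241 genes had an unadjusted p under 0.05, against 2050 as reported and 1248 when scaled to the epithelial junction genes, and 0 members and 0 genes were called. Same-numbered tumours correlated at 0.49, -0.16, 0.59 and -0.25 in their deviations from the host means. Tumours of unlike number ran from -0.58 to 0.31, so the pairs numbered 1 and 3 were the highest. Whether the numbers pair the tumours is not settled, and the fit as reported did not pair them. With the unscaled series matrix, which moved the median of all genes from 0.05 to -0.20, Cdx2 turned to -0.084, Krt8 to -0.099, Krt18 to -0.21 and Lgals4 to -0.016. Quantile scaling turned Krt18 to -0.058. With 1 tumour left out Cdx2 ran from -0.17 to 0.60, Krt18 from -0.25 to 0.20, Krt19 from -0.43 to 0.29 and Lgals4 from -0.0066 to 0.53. Without Ext1S100a4Cre host tumours 1 and 4 Krt19 turned to 0.43, and without WT host tumour 3 and Ext1S100a4Cre host tumour 1 Cdx2 turned to -0.19. The cause of these turns was not tested. Requiring all 8 arrays drops Cdx1 by construction, which leaves 1 member at an unadjusted p under 0.05. That count rose from 2 to 3 with the unscaled series matrix and without WT host tumour 2 (Krt20 added, -1.135 and -1.24), and without WT host tumour 3 and Ext1S100a4Cre host tumour 1 (Lgals4 added, 0.77). The median difference over the members ran from -0.10 to 0.43 over the alternatives, so its sign was not steady. Each value lay within 0.56 of the 0.15 as reported, which is a wide margin beside 0.15. That margin is the pooled SD within hosts of each tumour's median level over the members. It is not a spread of the difference itself.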
